A study of Rattus norvegicus with 17 samples.

Results

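Cytoskeleton and contractile genes of the rat kidney were examined after sub-total nephrectomy (SNx). The 43 genes were chosen by symbol from the study's lists of kidney transcripts, which were themselves selected on the measured change between SNx and control kidneys. The symbols begin with the letters used for keratins, vimentin, desmin, tubulins, actins, actinins, tropomyosins, myosins, filamins, villins, calponins, transgelins and related proteins. They are 43 of the 2007 genes to which the shown parts of those lists give a symbol, and of 23487 genes in the count table. All 43 passed the filter on low counts. One of them, Cnnm2, matched only by its letters, since it codes for a membrane protein of magnesium handling, so 42 are cytoskeletal by function.

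Kidney RNA was sequenced from male Wistar Han rats, in 12 libraries labelled SNx and 5 labelled NoOp. In SNx, part of the right kidney is resected and the left kidney is removed later, and the remnant then loses function over weeks. The labels call the controls NoOp, whereas the controls of study 2, which these 5 libraries match in number, are described as sham-operated in the study's methods. Rats were to be killed once kidney function had fallen to a set level, so that times after surgery differed. Only a minority of the operated rats of study 2 reached that level, fewer than the 12 SNx libraries. If each SNx library came from a different rat of study 2, some came from rats short of that level. Which ones is not given in the sources used here. Ages are not given either. Nothing in the labels says more of the libraries than that they are separate samples. The p-values for SNx against NoOp thus set the difference between the groups against the spread between these samples.

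The cytoskeleton has 3 filament systems. Actin filaments with myosins, tropomyosins, calponins and caldesmon give cells their tension and, in smooth muscle, their contraction. Microtubules are built of tubulin pairs and serve transport and division. Intermediate filaments differ by cell type, with keratins in epithelia, desmin in muscle and vimentin in mesenchymal cells, and in the kidney villin and its relatives shape the microvilli of the proximal tubule brush border. Serum response factor, which binds a site called the CArG box, is a known activator of many actin-linked and smooth muscle genes.

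The upstream sequences of a pair of calponins are shown because Cnn2 was the only member with an exact CArG box in this window and because Cnn1, its smooth muscle relative, differed from it in the libraries. Both are RefSeq sequence of the GRCr8 build, 250 bases ending at the gene's start and written 5′ to 3′ on the gene's strand. Capitals mark the CArG box. Cnn2 lies at chr7:10370313-10370562 on the minus strand, with the box from 71 to 62 bases before the start, and Cnn1 at chr8:28908187-28908436 on the plus strand.
Cnn2: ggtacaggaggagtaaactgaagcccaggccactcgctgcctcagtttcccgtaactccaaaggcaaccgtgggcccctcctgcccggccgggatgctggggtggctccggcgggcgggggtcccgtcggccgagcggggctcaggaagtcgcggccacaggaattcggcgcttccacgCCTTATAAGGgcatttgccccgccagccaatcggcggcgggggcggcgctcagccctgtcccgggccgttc
Cnn1: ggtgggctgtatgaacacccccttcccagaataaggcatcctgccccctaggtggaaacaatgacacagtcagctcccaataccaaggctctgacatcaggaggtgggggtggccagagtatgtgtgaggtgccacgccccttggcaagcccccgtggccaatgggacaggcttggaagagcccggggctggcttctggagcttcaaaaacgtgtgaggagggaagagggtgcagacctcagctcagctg
Windows were found for 37 of the 43 members, Myh9l1 under the symbol Myh9. An exact box on either strand of the 300 bases around the start was found in 1 of the 37 (2.70%) and in 485 of 27457 genes (1.77%). With 1 mismatch allowed the counts were 8 of 37 (21.6%) and 6187 of 27457 (22.5%), so the share among the members lay close to that among all genes. A match is a description of letters, and no match says only that they are not in this window. No window was found for Krt7, Krt15, Krt17, Krt19, Tagln and Capg.

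The SNx libraries held 19210434 to 30784070 estimated counts and the NoOp libraries 30454170 to 43876369. TMM factors, a correction for composition, were 0.980 to 1.11 and 0.879 to 0.941. Levels are given as log2 CPM, where CPM are counts scaled to a common total after this correction. With library size alone the median log2 fold change of all genes moved from 0.02 to 0.23, and the share of called genes that were higher in SNx from 52.2% to 74.6%. The proximal tubule markers Lrp2 and Slc34a1 were present in all 17 libraries, at no less than 9.71 and 6.58 log2 CPM. The label numbers of the libraries fall into 2 ranges, the controls and 6 SNx libraries in the lower and 6 SNx libraries in the upper. In bulk kidney, fewer cells of a type and less RNA per cell cannot be told apart.

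Of the 43 members, 12 stand in the shown part of the list of study 2, which was made on rats of these libraries as far as the numbers of controls allow it to be told. Their values are given without a test. The other 31 stand only in the shown part of the list of study 1, which came from other rats if these libraries are of study 2. They were tested with edgeR's quasi-likelihood test, adjusted by Benjamini-Hochberg over all 15438 genes, at a false discovery rate of 0.05. Of these 31, 24 rose in SNx, 4 fell and 3 did not pass. Among all genes 58.0% passed, 30.3% higher and 27.7% lower in SNx. The 31 were listed for a change in study 1, so the direction of their change is not independent of how they were chosen. Their median log2 fold change was 0.93, that of the 12 genes of study 2 was 1.57, that of all 43 was 1.09 and that of all genes tested 0.02. In 26 of the 43 members every SNx library lay above every NoOp library and in 3 every one lay below, against 13.5% and 9.60% of all genes (23.1% together). For the 31 members of study 1 alone the groups were apart in 17. With the 6 SNx libraries of the lower number range alone 28 of the 31 were called, and with the 6 of the upper range 27. In the order of the lists, Cnn2 was the last member in the shown part of study 1 and Map1b in that of study 2. Genes beyond these parts are not named here.

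**Figure D1:**
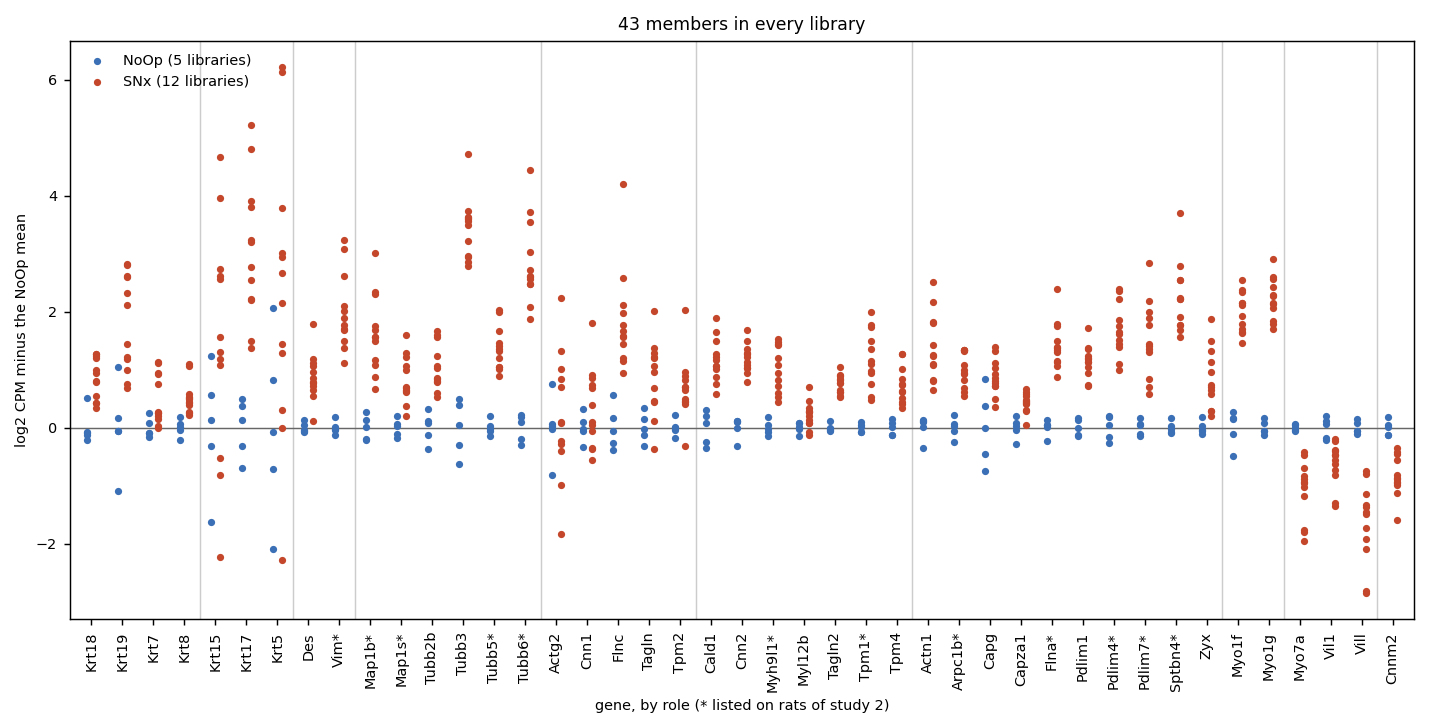
Level of each of the 43 members in every library, as log2 CPM minus the mean of the 5 NoOp libraries, ordered by role. Blue points are NoOp and red points SNx libraries, asterisks mark the 12 genes listed on rats of study 2, and grey lines part the role groups. The red points lie above the blue for 26 members and below for 3, and the basal keratins spread most.

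Keratins of simple epithelia rose together but not in equal measure. These filament proteins are found in tubule and duct epithelium, and Krt8 pairs with Krt18. All 4 members rose, with log2 fold changes between 0.54 and 1.85. Krt19 (ENSRNOG00000014233), a keratin of ducts, ranged in SNx from 5.73 through a median of 6.84 to 7.88 log2 CPM, against 3.95, 5.0, 5.21, 4.99 and 6.10 in NoOp 1 to 5. NoOp 1 was far lower than NoOp 5, and 9 of 12 SNx libraries lay above all controls. The log2 fold change was 1.85 ± 0.44 (SE, adjusted p = 0.0019). Krt18 (ENSRNOG00000047393) ranged from 5.09 through 5.63 to 6.03 in SNx, against 4.53, 4.68, 4.63, 4.66 and 5.26 in NoOp. NoOp 5 alone among the controls reached into the SNx range. Its log2 fold change was 0.87 ± 0.18 (SE, adjusted p = 6.8e-04). Krt8 rose by 0.54 ± 0.14 on the log2 scale (SE, adjusted p = 0.0036) and was the only one of the 4 with the groups apart, with 7.73 to 8.61 log2 CPM after surgery and 7.31 to 7.70 in controls. Krt7 rose by 0.56 ± 0.20 (SE, adjusted p = 0.026). That call was lost without NoOp 1, NoOp 2 or NoOp 4, with adjusted p of 0.0628, 0.0605 and 0.061.

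Within a library, Krt19 gained on Krt7. The log2 ratio of Krt19 over Krt7 was -1.69 ± 0.85 over the 12 SNx and -2.98 ± 0.62 over the 5 NoOp libraries (mean ± SD), a difference of 1.30 with 8 of 12 SNx libraries above all controls (two-sided exact permutation test over 6188 splits, adjusted p = 0.0296 over 9 ratios). The ratio fell short of the threshold without NoOp 1, at a difference of 1.06 and adjusted p = 0.10 in the same exact test. Against the SNx libraries of the lower number range the difference was 1.5 (adjusted p = 0.058 in the exact test). For Krt18 over Krt8 the difference was 0.34 (exact permutation test, adjusted p = 0.108), and without NoOp 5 it was 0.45 (adjusted p = 0.039). Among the SNx libraries the levels of Krt19 and Krt7 had a Pearson's r of 0.21 (permutation test, adjusted p = 0.49 over 15 pairs, n = 12, Spearman's rho 0.28 with adjusted p = 0.41), and r was 0.01 without SNx 10 and SNx 11. Krt8 and Krt18 had r = 0.48 (permutation test, adjusted p = 0.13) and rho = 0.65 (adjusted p = 0.035), and r was 0.45 without SNx 5 and SNx 6. Without SNx 10 it was 0.65 (adjusted p = 0.032), and with the deposited log2 values 0.595 (adjusted p = 0.044).

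Basal keratins were the most variable members. Krt5 and Krt15 belong to the basal cells of layered epithelia such as urothelium and skin, and Krt17 is known as a keratin of injured and stressed epithelium. All 3 rose. Krt17 (ENSRNOG00000026371) had 5, 2, 4, 6 and 1 counts in NoOp 1 to 5 and from 11 to 137 counts in SNx. In log2 CPM it ranged from -1.11 through 0.50 to 2.73 in SNx, the controls lying between -3.19 and -1.99, so the groups were apart, at few counts in the controls. Its log2 fold change was 4.08 ± 0.78 (SE, adjusted p = 3.9e-04). Krt5 (ENSRNOG00000050420) spanned 2 to 1202 counts in SNx, or -2.66 through a median of 2.04 to 5.85 log2 CPM, against -2.46, -0.44, -1.09, 0.45 and 1.69 in NoOp. SNx 1 and SNx 10 were highest, SNx 5 lay below every control, and 7 of 12 SNx libraries lay above all controls. Its log2 fold change was 3.46 ± 1.28 (SE, adjusted p = 0.028). Krt15 (ENSRNOG00000014099) ranged from -0.50 through 3.16 to 6.40 in SNx, against 0.10, 2.30, 1.87, 1.41 and 2.97 in NoOp. It showed the same extremes, SNx 1 highest and SNx 5 lowest, and a log2 fold change of 2.31 ± 0.92 (SE, adjusted p = 0.039).

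The calls for Krt5 and Krt15 lay near the threshold and were lost in other fits. With limma-voom the log2 fold changes were 2.34 and 1.51 (adjusted p = 0.212 and 0.221), and with limma on the deposited log2 values 2.43 and 1.58 (adjusted p = 0.0975 and 0.133). Leaving out any one of NoOp 1 to NoOp 4 gave log2 fold changes of 3.17 to 3.51 for Krt5 (adjusted p = 0.0552 to 0.0642) and 2.06 to 2.39 for Krt15 (adjusted p = 0.0654 to 0.0874), with little change in size. For Krt15 the log2 fold change was 1.79 without SNx 1 and 2.08 without SNx 10 (adjusted p = 0.0618 and 0.0586). Over all libraries left out in turn the log2 fold change of Krt5 lay between 2.87 and 4.27, the latter without NoOp 5. Krt17 passed in each of these fits. The log2 ratio of Krt15 over Krt5 differed by -0.80 between the groups (exact permutation test, adjusted p = 0.108), and by -1.08 without NoOp 4 (adjusted p = 0.047).

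Across the SNx libraries Krt5 varied with Krt15 and, less closely, with Krt17, and Krt15 with Krt17 was not tested. In SNx 5, where Krt5 and Krt15 were lowest, Krt17 was at 0.28 log2 CPM, near its SNx median of 0.50. Krt5 and Krt15 had r = 0.97 (permutation test, adjusted p = 7.5e-05 from 1e-05, the smallest p that these permutations can give, n = 12, rho = 0.94 with adjusted p = 3.5e-04) and r = 0.93 without SNx 1 and SNx 5. Krt5 and Krt17 had r = 0.75 (permutation test, adjusted p = 0.0099, rho = 0.77 with the same adjusted p) and r = 0.82 without SNx 1 and SNx 5, but without SNx 1 alone r was 0.65 with an adjusted p of 0.055. Of 8 urothelium markers 2 had an identifier, the uroplakins Upk2 and Upk3a, which coat the bladder and renal pelvis. Their log2 fold changes were -0.28 ± 0.76 (SE, adjusted p = 0.77) and 1.34 ± 0.85 (SE, adjusted p = 0.18). Their summed level was 0 to 24.05 CPM in SNx and 0.736 to 6.11 CPM in NoOp. Upk3a was highest in SNx 1 and SNx 10, at 4.35 and 2.96 log2 CPM, where Krt5 and Krt15 were also highest. Upk2 was not highest there, with 0.96 in SNx 1, -0.73 in SNx 10, which lay below 4 of the 5 controls, and its highest value of 2.24 in SNx 4. Both uroplakins had 0 counts in SNx 5, and Upk2 in SNx 11 too. The part of urothelium in the basal keratin levels was not tested.

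**Figure D2:**
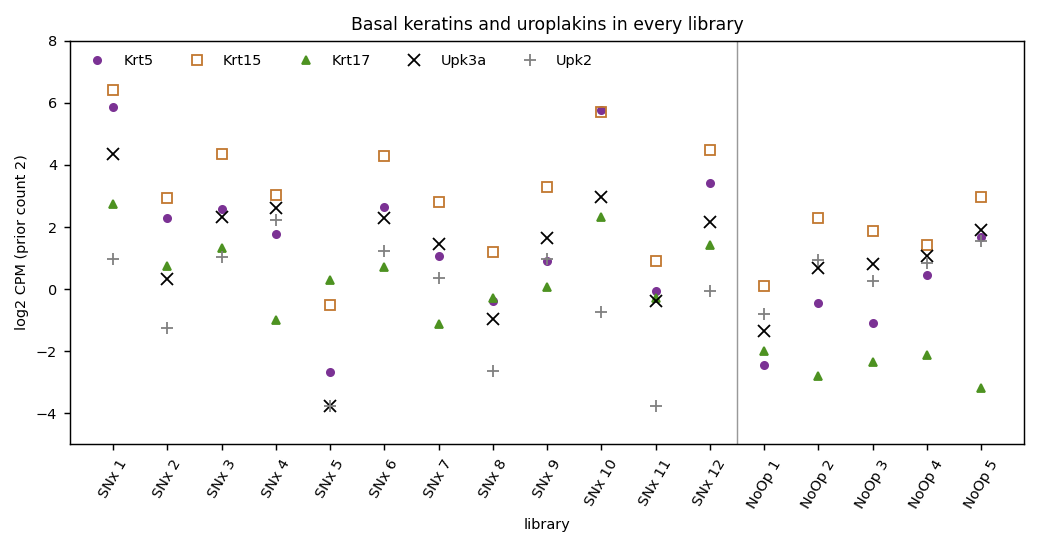
Level in log2 CPM of the basal keratins Krt5, Krt15 and Krt17 and of the uroplakins Upk2 and Upk3a in each of the 12 SNx and 5 NoOp libraries, parted by a line. Krt5 and Krt15 lie highest in SNx 1 and SNx 10 and lowest in SNx 5, where neither uroplakin had a count.

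Vimentin and desmin, the filament proteins of mesenchymal cells and of muscle, were both higher in SNx, vimentin by more. Vim (ENSRNOG00000018087), which is also known from dedifferentiated tubule cells, ranged from 7.98 through 8.71 to 10.11 log2 CPM in SNx, against 6.85, 6.83, 6.88, 7.05 and 6.75 in NoOp. The groups were far apart, with SNx 1 and SNx 5 highest and SNx 11 lowest. The log2 fold change was 2.15 ± 0.33 (SE), given as a description. Des (ENSRNOG00000019810) ranged from 4.97 through 5.68 to 6.64 in SNx, against 4.80, 4.99, 4.91, 4.78 and 4.81 in NoOp. SNx 8 alone reached into the control range, and Des rose by 0.93 ± 0.19 on the log2 scale (SE, adjusted p = 6.0e-04). The log2 ratio of Vim over Des was 3.14 ± 0.55 over the 12 SNx and 2.02 ± 0.16 over the 5 NoOp libraries (mean ± SD). It lay above all controls in 11 of 12 SNx libraries. Among the SNx libraries Vim and Des had r = 0.55 (permutation test, adjusted p = 0.074) and rho = 0.39 (adjusted p = 0.24), and r fell to 0.01 without SNx 1 and SNx 5. Without SNx 4 or SNx 8, r was 0.68 or 0.69 with adjusted p of 0.034 and 0.020, and the pair also passed with library size alone (r = 0.61, adjusted p = 0.043) and with the deposited log2 values (r = 0.62, adjusted p = 0.039). The fibroblast markers Col1a1 and Postn, 2 of 5 with an identifier, summed to 435.3 through a median of 861.4 to 6443 CPM in SNx, against 80.5 to 92.36 CPM in NoOp. The highest sum was that of SNx 1, and the next highest was 1145 CPM. Both markers were named only through the list of study 1, which was selected on change, so their higher sum is not independent of that choice. The part of these fibroblast markers in the vimentin level was not tested.

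All 6 microtubule genes were higher in every SNx library than in any control, as were 13.5% of all genes. Of the 6, 4 stand in the list of study 2 (Tubb5, Tubb6, Map1b and Map1s). The separation of those 4 is not independent of how they were chosen. Both members that could be tested, Tubb2b and Tubb3, rose. Tubb3 (ENSRNOG00000017209), a beta tubulin best known from neurons, had 8, 11, 5, 16 and 6 counts in NoOp 1 to 5 and from 50 to 189 counts in SNx. Its level was 1.27 through 2.01 to 3.19 log2 CPM in SNx against -1.48, -1.13, -2.15, -1.03 and -1.82 in NoOp. The log2 fold change was 3.74 ± 0.37 (SE, adjusted p = 8.3e-07). Tubb2b rose by 1.09 ± 0.19 (SE, adjusted p = 2.3e-04). Tubb6 (ENSRNOG00000018371), a beta tubulin of many tissues, ranged from 3.39 through 4.11 to 5.95 in SNx, against 1.32, 1.60, 1.72, 1.69 and 1.21 in NoOp. SNx 1 was highest and SNx 11 lowest, and the log2 fold change was 3.05 ± 0.41 (SE). Tubb5, Map1b and Map1s, of which the latter pair bind and steady microtubules, had log2 fold changes of 1.41, 1.77 and 0.88. The ratio of Tubb6 over Tubb5 was higher in every SNx library than in any control, by 1.48 on the log2 scale. Beta tubulins are near-identical over long stretches, so reads shared among them make their separate levels uncertain. Tubb6 and Tubb3 had r = 0.57 among the SNx libraries (permutation test, adjusted p = 0.069) and rho = 0.24 (adjusted p = 0.46). Without SNx 1 and SNx 5, r was -0.10, and without SNx 6 alone it was 0.72 (adjusted p = 0.024). With library size alone it was 0.61 (adjusted p = 0.043) and with the deposited log2 values 0.60 (adjusted p = 0.046).

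Of 5 genes grouped as muscle contractile genes, Flnc, Tagln and Tpm2 rose, and Actg2 and Cnn1 did not pass. Flnc is a muscle filamin and not, like the others, a smooth muscle contractile gene. All 5 had positive log2 fold changes, and differences between them were not tested here. Flnc (ENSRNOG00000007281), a muscle filamin that links actin to the membrane, ranged from 3.44 through 4.12 to 6.70 log2 CPM in SNx, against 2.23, 2.43, 2.10, 2.65 and 3.05 in NoOp. The groups were apart, SNx 1 standing far above the rest, with a log2 fold change of 2.15 ± 0.50 (SE, adjusted p = 0.0019) that was 1.68 without SNx 1, 2.63 in the lower and 1.45 in the upper number range, and passed in each. Tagln (ENSRNOG00000017628), an actin-binding protein of smooth muscle, ranged from 5.98 through 7.35 to 8.35, against 6.02, 6.49, 6.32, 6.68 and 6.21. SNx 8 lay below all controls and 10 libraries above them, and the log2 fold change was 0.98 ± 0.29 (SE, adjusted p = 0.0083). Tpm2, a muscle tropomyosin, rose by 0.78 ± 0.26 (SE, adjusted p = 0.015), SNx 8 again lying below all controls. Actg2 (ENSRNOG00000029401), the enteric smooth muscle actin, ranged from -0.15 through 1.77 to 3.92 in SNx, against 0.86, 1.71, 1.66, 1.75 and 2.44 in NoOp. Cnn1 (ENSRNOG00000027736), the smooth muscle calponin shown above, ranged from 1.68 through 2.48 to 4.04, against 2.21, 1.90, 2.33, 2.55 and 2.17. For both the SNx libraries lay on either side of the controls, SNx 1 highest and SNx 8 lowest. Their log2 fold changes were 0.51 ± 0.50 and 0.49 ± 0.32 (SE, adjusted p = 0.39 and 0.19). Actins share much of their sequence, so the level of Actg2 is uncertain. None of the 7 smooth muscle and pericyte markers had an identifier, so the amount of smooth muscle in each library was not tested.

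Correlations were tested for 3 pairs among Cnn1, Actg2, Tagln and Tpm2, and Flnc was in none. Cnn1 and Actg2 had r = 0.91 (permutation test, adjusted p = 2.5e-04, n = 12, rho = 0.92 with adjusted p = 3.0e-04), and r = 0.83 without SNx 1 and SNx 8. Tpm2 and Tagln had r = 0.86 (permutation test, adjusted p = 0.0012, rho = 0.80 with adjusted p = 0.0073), and Cnn1 and Tagln r = 0.79 (adjusted p = 0.0053, rho = 0.78 with adjusted p = 0.0091). Both of these relations fell short of the threshold without SNx 1 and SNx 8, where r was 0.65 and 0.55 (adjusted p = 0.086 and 0.17).

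Contractile genes of wider expression were more uniform. Of 7 members, Cald1, Cnn2, Tagln2 and Tpm4 rose, Myl12b did not pass, and Tpm1 and Myh9l1 are described only. Cnn2 (ENSRNOG00000043044), a calponin of non-muscle cells, ranged from 4.52 through 4.91 to 5.43 in SNx, against 3.83, 3.85, 3.74, 3.85 and 3.42 in NoOp. The groups were apart and the SNx libraries close together, with a log2 fold change of 1.21 ± 0.13 (SE, adjusted p = 2.1e-06). Tpm1 (ENSRNOG00000018184), a tropomyosin of muscle and non-muscle cells, ranged from 7.42 through 8.06 to 8.94, against 7.04, 6.95, 6.98, 6.87 and 6.86, and had a log2 fold change of 1.27 ± 0.23 (SE). Cald1, caldesmon, rose by 1.20 ± 0.19 (SE, adjusted p = 8.6e-05), Tagln2 by 0.76 ± 0.09 (SE, adjusted p = 3.3e-06) and Tpm4 by 0.76 ± 0.15 (SE, adjusted p = 4.8e-04), all with the groups apart. Myh9l1, which the lists name in the place of the non-muscle myosin heavy chain, had a log2 fold change of 1.07 with the groups apart. Myl12b (ENSRNOG00000015733), a myosin regulatory light chain, ranged from 6.67 through 7.03 to 7.51, against 6.81, 6.88, 6.66, 6.89 and 6.78, with a log2 fold change of 0.23 ± 0.11 (SE, adjusted p = 0.076). It passed without SNx 4 or SNx 7 (adjusted p = 0.038 and 0.0462), with library size alone (0.00465) and with limma on the deposited log2 values (0.0287). A near-identical light chain gene makes its level uncertain.

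Muscle and non-muscle relatives were compared within each library. The log2 ratio of Cnn1 over Cnn2 was -2.35 ± 0.51 over the 12 SNx and -1.5 ± 0.29 over the 5 NoOp libraries (mean ± SD). The smooth muscle calponin fell against its relative by 0.85, with 8 of 12 SNx libraries below all controls (two-sided exact permutation test, adjusted p = 0.0225). In the lower number range the difference was -0.76 (exact test, adjusted p = 0.091). No such difference passed for the transgelins and tropomyosins. Tagln over Tagln2 differed by 0.12 and Tpm2 over Tpm4 by -0.05 (exact permutation tests, adjusted p = 0.80 and 0.85), with SNx libraries both above and below all controls. The difference for Tpm2 over Tpm4 changed sign, to 0.02 without SNx 5 and 0.05 without SNx 8. Flnc over Actn1, a filamin over an alpha-actinin and so not a pair of such relatives, differed by 0.46 (exact permutation test, adjusted p = 0.197). Among ratios with a member listed on these rats, Tpm1 over Tpm4 was higher in SNx by 0.46, with 10 of 12 SNx libraries above all controls, and Myh9l1 over Myl12b by 0.81, with all 12 above. Flnc over Flna differed by 0.43, with 2 of 12 above and 1 below all controls and SDs of 0.53 and 0.50, and by 0.22 to 0.64 under the other settings.

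**Figure D3:**
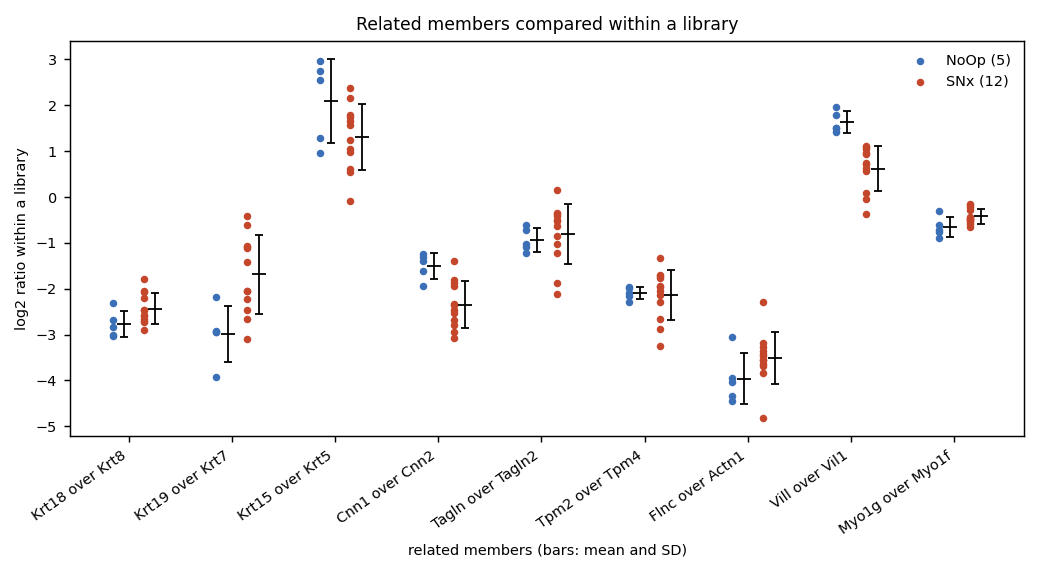
Log2 ratio of 9 pairs of members within each library, with blue points for the 5 NoOp and red points for the 12 SNx libraries and black bars for mean and SD. The SNx points lie wholly below the NoOp points for Vill over Vil1, below in 8 of 12 libraries for Cnn1 over Cnn2 and above in 8 of 12 for Krt19 over Krt7.

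Genes for crosslinkers, capping proteins and adaptors of actin were all higher in SNx, by 0.44 to 2.38 on the log2 scale. The 5 tested members, Actn1, Zyx, Pdlim1, Capg and Capza1, were called higher, as were 30.3% of all genes. They were listed for a change in study 1, and the other 5 stand in the list of study 2. The shared direction of the 10 is thus not independent of how they were chosen. Sptbn4 (ENSRNOG00000055371), a spectrin of the membrane skeleton, ranged from 3.99 through 4.64 to 6.13 log2 CPM in SNx, against 2.45, 2.40, 2.33, 2.60 and 2.36 in NoOp, with a log2 fold change of 2.38 ± 0.32 (SE). Pdlim4 (ENSRNOG00000050794), an adaptor that binds alpha-actinin, ranged from 3.95 through 4.58 to 5.34, against 2.69, 3.15, 3.0, 2.80 and 3.14, with a log2 fold change of 1.75 ± 0.23 (SE). Both were described only, and in both the groups were far apart. Actn1 (ENSRNOG00000056756), the alpha-actinin that bundles actin in stress fibres, ranged from 7.11 through 7.70 to 8.98, against 6.58, 6.47, 6.55, 6.59 and 6.11. It rose by 1.5 ± 0.28 (SE, adjusted p = 3.5e-04) with the groups apart. Pdlim1 rose by 1.17 ± 0.14 (SE, adjusted p = 4.9e-06) and Zyx, zyxin of focal adhesions, by 0.94 ± 0.24 (SE, adjusted p = 0.0034), both with the groups apart. Capg and Capza1, which cap filament ends, rose by 0.79 ± 0.22 and 0.44 ± 0.09 (SE, adjusted p = 0.0056 and 8.7e-04) with the groups overlapping. Flna, Pdlim7 and Arpc1b, a filamin, a second adaptor and a subunit of the actin-branching complex, had log2 fold changes of 1.47, 1.67 and 1.01. Flna (ENSRNOG00000054890) ranged from 9.46 through 9.95 to 10.98, against 8.72, 8.64, 8.64, 8.61 and 8.36, and followed Actn1 across the SNx libraries with r = 0.94 (permutation test, adjusted p = 7.5e-05, n = 12, rho = 0.96 with adjusted p = 3.0e-04) and r = 0.90 without SNx 1 and SNx 11.

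The myosins of white blood cells rose in every SNx library. Myo1g (ENSRNOG00000059140) and Myo1f (ENSRNOG00000008409) are single-headed myosins at the membrane of lymphocytes and of myeloid cells. Myo1g ranged from 4.57 through 5.09 to 5.79 in SNx, against 3.04, 2.81, 2.82, 2.96 and 2.75 in NoOp, with a log2 fold change of 2.28 ± 0.18 (SE, adjusted p = 1.7e-07). Myo1f ranged from 5.0 through 5.55 to 6.08, against 3.81, 3.43, 3.70, 3.68 and 3.05, with a log2 fold change of 2.01 ± 0.19 (SE, adjusted p = 5.5e-07). The groups were apart for both. Their ratio, Myo1g over Myo1f, differed by 0.24 (exact permutation test, adjusted p = 0.0567), and by 0.33 without NoOp 5 (adjusted p = 0.017), 0.26 without SNx 4 (adjusted p = 0.036) and 0.26 without SNx 7 (adjusted p = 0.050, on the threshold). They varied together across SNx libraries, with r = 0.89 (permutation test, adjusted p = 3.7e-04, rho = 0.84 with adjusted p = 0.0045) and r = 0.80 without SNx 1 and SNx 11. The leukocyte markers with an identifier, 5 of 8 (Ptprc, Cd68, Laptm5, Coro1a and Tyrobp), summed to 164.5 to 320.5 CPM in SNx and 35.69 to 57.84 CPM in NoOp. The study 1 list, selected on change, was the only source of these identifiers, so the higher sum is not independent of that choice. How much of the rise of both myosins goes with leukocyte number was not tested.

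Genes of the brush border fell. Vill (ENSRNOG00000011446), villin-like, ranged from 5.84 through 7.22 to 7.94 log2 CPM in SNx, against 8.63, 8.77, 8.64, 8.58 and 8.84 in NoOp. The groups were apart, SNx 1 lowest and SNx 11 nearest the controls, with a log2 fold change of -1.51 ± 0.26 (SE, adjusted p = 1.9e-04). Myo7a (ENSRNOG00000013641), a myosin of microvilli and sensory hair cells, ranged from 6.22 through 7.23 to 7.76, against 8.17, 8.23, 8.12, 8.21 and 8.13, with a log2 fold change of -1.0 ± 0.20 (SE, adjusted p = 6.6e-04). Vil1 (ENSRNOG00000015408), villin, which bundles the actin core of microvilli, ranged from 5.70 through 6.53 to 6.86, against 7.12, 7.26, 6.84, 7.17 and 6.88. SNx 4 just reached the control range, and Vil1 fell by 0.60 on the log2 scale (SE 0.16, adjusted p = 0.0042). Vill fell further than Vil1. The log2 ratio of Vill over Vil1 was 0.62 ± 0.49 over the 12 SNx and 1.63 ± 0.23 over the 5 NoOp libraries (mean ± SD), all 12 SNx libraries below the controls (two-sided exact permutation test, difference -1.02, adjusted p = 0.00727), and it passed with every library left out in turn and in the lower number range (difference -1.28, adjusted p = 0.039). Cnnm2 (ENSRNOG00000020113), the member by letters only, ranged from 5.35 through 6.08 to 6.60, against 7.13, 6.97, 7.0, 6.83 and 6.83, and fell by 0.80 (SE 0.15, adjusted p = 3.1e-04).

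Proximal tubule markers were also lower in SNx. The 5 of 7 with an identifier (Slc34a1, Lrp2, Cubn, Slc22a6 and Slc3a1) summed to 1515 to 12680 CPM in SNx and 15800 to 17540 CPM in NoOp. These markers had an identifier only through the list of study 1, so their fall is not independent of how that list was chosen. Their relation to the brush border genes across libraries was not tested. The part of proximal tubule mass in the fall of Vil1, Vill and Myo7a was not tested. Across the SNx libraries Vil1 and Myo7a had r = 0.89 (permutation test, adjusted p = 5.4e-04, n = 12, rho = 0.83 with adjusted p = 0.0053) and r = 0.80 without SNx 1 and SNx 10. Vil1 and Vill had r = 0.73 (permutation test, adjusted p = 0.015, rho = 0.72 with adjusted p = 0.018) and r = 0.75 without the same 2 libraries, but without SNx 1 alone r was 0.60 with an adjusted p of 0.086. Vim and Krt19 ran against Vil1, with r = -0.64 (permutation test, adjusted p = 0.034, rho = -0.71 with adjusted p = 0.018) and r = -0.65 (permutation test, adjusted p = 0.027, rho = -0.62 with adjusted p = 0.045). Both relations fell short of the threshold when some libraries were left out, though r did not always weaken. With the SNx libraries of the lower or upper number range alone, Vim and Vil1 had r = -0.82 and -0.78 (permutation test, adjusted p = 0.062 and 0.098). Krt19 and Vil1 had r = -0.81 and -0.57 in these ranges (permutation test, adjusted p = 0.076 and 0.31). For Vim and Vil1, r was -0.42 without SNx 1 and SNx 5 (adjusted p = 0.28), and single libraries left out gave r = -0.47 without SNx 1, -0.60 without SNx 4 and -0.59 without SNx 11 (adjusted p = 0.19, 0.067 and 0.071). For Krt19 and Vil1, r was -0.49 without SNx 10 and SNx 11 (adjusted p = 0.22), and -0.57 without SNx 1, -0.59 without SNx 4, -0.57 without SNx 10 and -0.60 without SNx 11 (adjusted p = 0.086, 0.071, 0.074 and 0.071).

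SNx libraries differed among themselves more than the NoOp libraries did. The SD of log2 CPM was larger in SNx than in NoOp for 41 of 43 members, and for 81.9% of all genes. Its median over the members was 0.44 in SNx and 0.17 in NoOp, against 0.29 and 0.17 over all genes. Of the 39 members with a positive fold change, SNx 1 held the highest SNx value in 29 and SNx 11 the lowest in 22. SNx 8 was lowest in 7, among them all 5 genes grouped as muscle contractile genes, and SNx 4 in 6. SNx 5 was high in Vim and Actn1 but lowest in Krt5 and Krt15. Leaving out SNx 1 left 27 of the 31 tested members called, Krt15 being lost. RNA quality of each library was not known here, and its part in this spread was not tested.

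**Figure D4:**
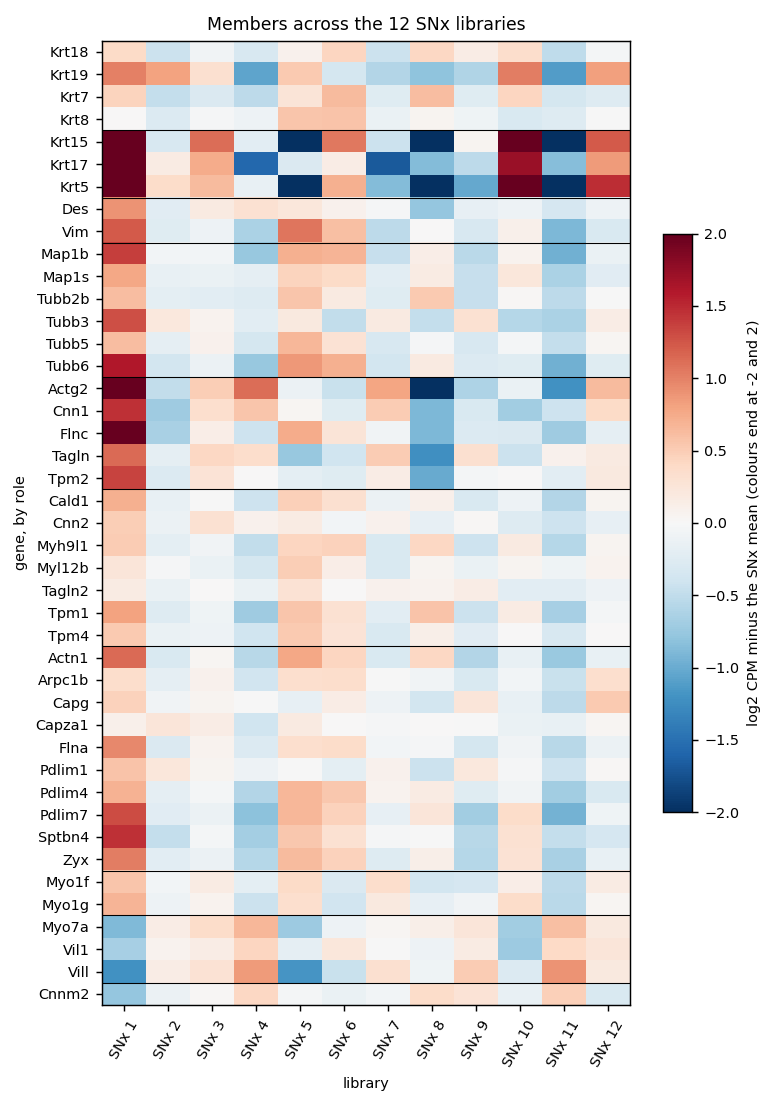
Level of each member in the 12 SNx libraries as log2 CPM minus the mean over these libraries, with red above and blue below and colours ending at 2 and -2. SNx 1 is red in most genes other than the brush border genes and Cnnm2, SNx 11 is mostly blue, and SNx 8 is blue in the muscle contractile genes.

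Other genes of the cytoskeleton were taken from a list of 123 symbols, of which 30 had an identifier. Of these, 7 stand in the list of study 2 and were all higher in SNx, which is a description. The remaining 23 stand in that of study 1 alone, and 14 rose, 8 fell and 1, Scin, did not pass (edgeR, adjusted p = 0.087). The median log2 fold change of the 23 was 0.61. Among all genes 58.0% passed, 30.3% higher and 27.7% lower in SNx. These 23 were listed for a change in study 1, so their count and direction are not independent of how they were chosen. Lcp1 and Coro1a, actin-binding proteins of leukocytes, had the smallest p among those that rose, with log2 fold changes of 1.93 ± 0.16 and 2.12 ± 0.18 (SE, adjusted p = 2.2e-07 for each). Coro1a is also one of the leukocyte markers. Eps8, which caps and bundles actin in microvilli, and Nefm, a neurofilament, had the smallest p among those that fell, with log2 fold changes of -0.77 ± 0.14 and -1.55 ± 0.30 (SE, adjusted p = 3.3e-04 and 4.1e-04). The microvillus genes Ush1c, Cdhr2, Pdzk1 and Baiap2l2 of this list also fell, with log2 fold changes of -0.96, -1.26, -1.39 and -1.20.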

How the data were processed

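Rat kidney RNA of 17 samples had been depleted of ribosomal RNA and sequenced paired-end from strand-specific libraries. The authors quantified transcripts and deposited their estimated counts per gene, not normalized, and, for 13318 genes, log2 values after limma's voom transformation. The submitters' processing notes name Salmon, limma and rn6, and versions are not given in the sources used here. The 34 columns of whole-series tables repeated those of the single libraries and were left out. Columns of fold changes and p-values in the study's lists were not used. Identifiers were paired with symbols only through those lists, of which a part was held here (1998 entries of study 1 and 510 of study 2).

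Estimated counts were rounded and analysed in R 4.3.3 with edgeR 4.0.16 (filterByExpr, TMM, glmQLFit and glmQLFTest, two-sided, Benjamini-Hochberg over 15438 genes). Fold changes compare mean counts and so lean on high libraries more than the levels do, which are log2 CPM with a prior count of 2. The SE is the fold change on the log2 scale divided by the root of F. Within-library ratios were tested exactly over 6188 splits into 12 and 5, correlations with 100000 permutations over 12 SNx libraries. Other settings tried were limma 3.58.1 on the deposited log2 values or after voom, DESeq2 1.42.0, RLE factors, library size alone, no filter, a fold change of at least 1.5, each library left out, and the SNx libraries of either range of label numbers. The fits were tested on simulated data. Precision of low counts is limited by counting error. No libraries were found to be duplicates.

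Members, lists and pairs were chosen with earlier results of these data known. Levels per library are given for the pair of members with the largest change in each role group, members that fell or did not pass, and members of a described ratio or correlation. Other cytoskeleton genes are named by the smallest p in each direction. Ush1c, Cdhr2, Pdzk1, Baiap2l2 and Scin were named after their values were seen.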

Additional observations from a re-analysis of the deposited data

Results flagged for a closer look

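In the 5 controls, 4 of 57 groups of values held a library farther from the others than Dixon's critical value of 0.71 for 5 samples allows, where chance gives about 2.85. All 4 were values of NoOp 5. Krt18 was 5.26 log2 CPM in NoOp 5 and 4.53 to 4.68 in the other controls. Cnn2 was 3.42 against 3.74 to 3.85, Actn1 was 6.11 against 6.47 to 6.59, and Flna was 8.36 against 8.61 to 8.72. Without NoOp 5, 28 of the 31 tested members were called, as with it.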

How the results depend on the processing

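The number of tested members called (28 of 31) was 25 to 29 under every alternative, 25 to 29 with single libraries left out, and 26 with limma-voom. The number of ratios past the threshold (3) was 2 to 5 with single libraries left out, 5 without NoOp 5, and 1 with the SNx libraries of either range of label numbers alone (6 in each, the controls all in the lower range), where Krt19 over Krt7 (adjusted p = 0.058 and 0.11) and Cnn1 over Cnn2 (adjusted p = 0.091 and 0.058) were lost in exact tests. The number of correlated pairs (11) was 7 without the 2 libraries farthest from the median of the first gene, 7 to 12 with single SNx libraries left out, 7 without SNx 1, 6 in the lower and 2 in the upper range, each of 6 libraries, 13 with library size alone and 14 with the deposited log2 values. In the upper range Vil1 and Vill had r = 0.84, against 0.73 over all 12 SNx libraries, and did not pass (permutation test, adjusted p = 0.077). Krt19 and Vil1 had r = -0.57 there, against -0.65 (permutation test, adjusted p = 0.31). A pair lost with fewer libraries therefore need not have had a weaker r. CArG boxes with 1 mismatch were found in 8 member genes in place of 1. The sign changed for Tpm2 over Tpm4, to 0.0125 with the deposited log2 values, and to between -0.125 (without SNx 1) and 0.0510 with single libraries left out (0.0156 without SNx 5, 0.0510 without SNx 8), for Tubb6 and Tubb3, to r = -0.0971 without the 2 farthest libraries, and for Vim and Des, to r = -0.2061 in the upper range. Krt15 was also lost in the upper range (adjusted p = 0.0636 by edgeR). The cause of these changes was not tested. Fold changes of single members kept direction under all alternatives. Depth limits Krt17 and Tubb3, with few counts in the controls, and Krt5, with 2 counts in SNx 5. The study's methods give RNA integrity estimates that range widely and reach very low values, without naming libraries. The part of RNA quality in these levels was not tested. No paired analysis was possible because no label number is shared between an SNx and a NoOp library, and the replicate numbers used here follow accession order only.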
